A study of Mus musculus with 4 samples.

Results

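Erythroid factors and globin genes were examined in LSK cells, the bone marrow fraction that lacks lineage markers and carries Sca-1 and Kit, which includes the stem cells of blood and multipotent progenitors. The set was chosen by name, with earlier results of these data known. It held 10 genes: Gata1, Klf1, Gfi1b, Epor, Hba-a1, Hba-a2, Alas2, Car1, Car2 and Tfrc. Of the 13749 gene symbols in the deposited table, 9 belonged to this set. Hba-a2 is not analysed here as a gene of its own. The labels gave 2 libraries of wild-type C57BL/6 mice (Asxl1+/+, WT) and 2 libraries of C57BL/6 mice heterozygous for a frameshift allele of the chromatin gene Asxl1 (Asxl1G643fs/+, the knock-in, KI). All mice were 8 weeks old, and cells were sorted from 8 mice of each genotype. How these 8 mice were divided between the libraries numbered 1 and 2 is not given in the labels, so that p-values measure a spread between libraries that may be technical. The comparison asks what 1 mutant Asxl1 allele changes in stem and progenitor cells before they commit to a lineage.

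Red cell formation is driven by a small set of nuclear factors. GATA1 and KLF1 switch on the genes for globin, heme synthesis and the red cell membrane, and GFI1B, a repressor, is needed for the erythroid and megakaryocyte lineages. Erythropoietin acts through its receptor EPOR to keep committed erythroid cells alive, and TFRC brings in iron bound to transferrin. Part of this program is already transcribed at a low level in multipotent cells, a state called lineage priming.

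Values are FPKM, fragments scaled to transcript length and to the fragments mapped in the library, summed over the transcripts of a gene, so that levels are per length and can be set beside each other. The erythroid genes spanned a wide range. Car2 had the highest mean over the 4 libraries, 181 FPKM, above 97.8% of the 11083 genes tested. Tfrc followed at 16.6 FPKM, Hba-a1 at 12.2, Gfi1b at 12.1, Gata1 at 8.07 and Car1 at 8.07. Among these last 5 genes, the ranges over the 4 libraries overlapped for every pair but Tfrc and Gata1, so their order was largely not resolved. Klf1 (1.199 FPKM) and Epor (1.11 FPKM) lay just above the filter of a mean of 1 FPKM that genes had to pass to be tested, above 2.14% and 1.24% of tested genes. Alas2, at 0.310 FPKM, lay below it, so that 8 of the 9 genes with values were tested.

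**Figure D1:**
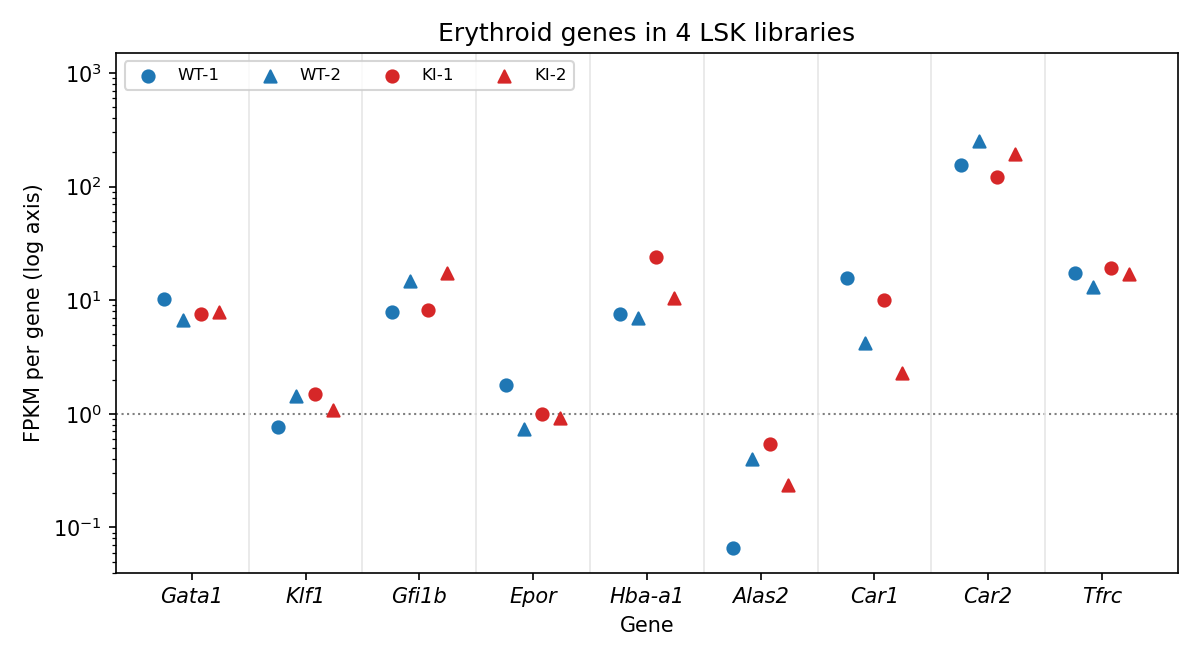
FPKM per gene (log axis) of the 9 erythroid genes with values, by library. Blue points are WT and red points KI, circles mark libraries numbered 1 and triangles those numbered 2, and the dotted line is the filter of 1 FPKM. Only Hba-a1 has both KI libraries above both WT libraries, Car1, Epor and Tfrc lie higher in both libraries numbered 1, Gfi1b and Car2 in both numbered 2, and Alas2 is below the line in all 4 libraries.

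The KI was compared with WT by limma on log2(FPKM + 1) over all 11083 tested genes, with two-sided tests and Benjamini-Hochberg adjustment. None of the 8 tested erythroid genes passed an adjusted p of 0.05, and each had an adjusted p of 1. Over all tested genes 0, or 0%, were called, and 47 (0.424%) had an unadjusted p under 0.05, among them Hba-a1. Over the alternative settings, the adjusted p of the 8 genes ranged from 0.0586 to 1. The spread in this fit holds the difference between libraries numbered 1 and 2, and likeness of the genotypes cannot be read from a count of 0. For a single gene, an exact two-sided permutation test of 2 against 2 libraries cannot go below p = 0.333. The median difference of the 8 genes was 0.019 on the log2 scale, against 0.0075 over all tested genes. The data are of bulk RNA, in which fewer cells of a type and less RNA per cell cannot be told apart.

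The direction of the KI difference was also read within each library number. Higher in KI in both numbers were 3 of the 8 tested genes, Hba-a1, Gfi1b and Tfrc, beside 28.7% of all tested genes. Lower in KI in both were 2, Car1 and Car2, beside 25.5% of all tested genes. Gata1, Klf1 and Epor differed in opposite directions in the 2 numbers. These counts are near the share over all genes and are given as a description.

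**Figure D2:**
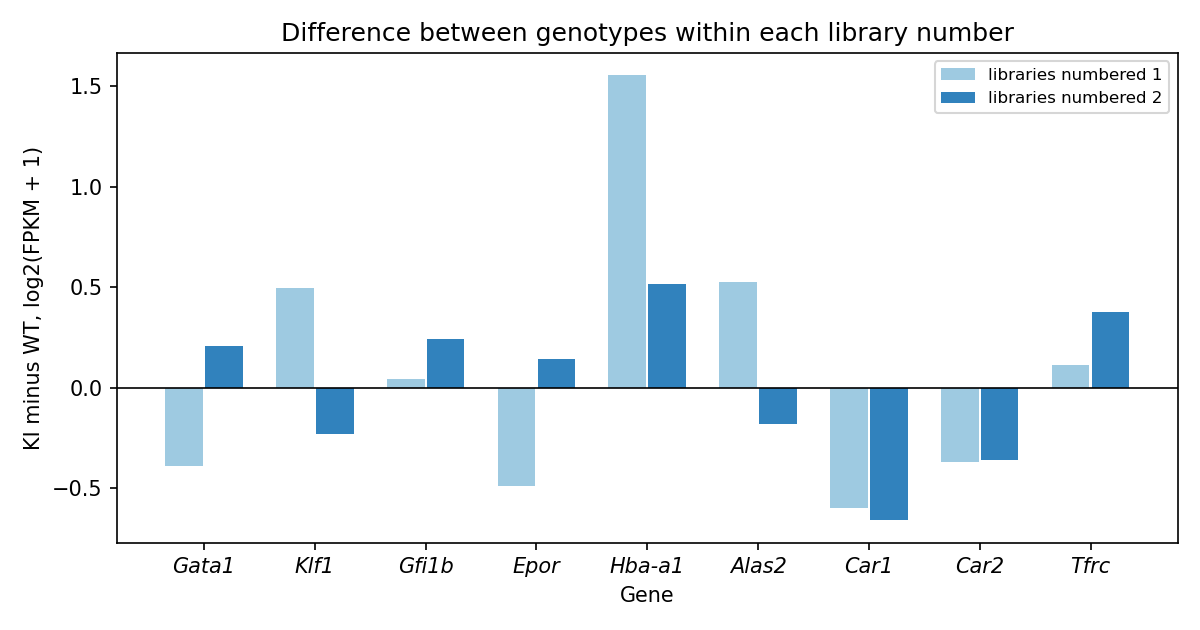
KI minus WT in log2(FPKM + 1) for each erythroid gene, from 1 library per genotype within number 1 (light bars) and within number 2 (dark bars). Car1 and Car2 are below 0 by about the same amount in both numbers, Hba-a1 is above 0 in both, and Gata1, Klf1, Epor and Alas2 turn their direction.

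Among the nuclear factors, Gata1 (chromosome X, 7959260 to 7976663, GRCm38) stood at 10.3 and 6.63 FPKM in WT-1 and WT-2, and at 7.60 and 7.80 in KI-1 and KI-2. Both KI values lay between the WT values. The group means were 8.45 ± 2.58 FPKM for WT and 7.70 ± 0.143 for KI (SD, n = 2), a log2 difference of -0.093 with SE 0.27. It was -0.39 in number 1 and 0.21 in number 2, and its sign turned without WT-1, to 0.19.

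Klf1 (chromosome 8, 84901982 to 84905291), the factor that drives beta-globin and many late erythroid genes, stood at 0.771 and 1.45 FPKM in WT-1 and WT-2, and at 1.495 and 1.08 in KI-1 and KI-2. KI-1 was the highest library and WT-1 the lowest, and the groups overlapped. The log2 difference was 0.13 with SE 0.30, and it was -0.10 without WT-1.

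Gfi1b (chromosome 2, 28609450 to 28621982) stood at 7.92 and 14.6 FPKM in WT-1 and WT-2, and at 8.20 and 17.5 in KI-1 and KI-2. Both libraries numbered 2 were above those numbered 1, by ratios of 1.85 in WT and 2.13 in KI, while the genotypes differed by 1.04 and 1.19 within the numbers. The log2 difference between KI and WT was 0.14 with SE 0.43. It turned to -0.26 without WT-1 and to -0.36 without KI-2, fits in which the genotypes no longer hold the same library numbers. The table held 2 Gfi1b transcripts. NM_008114 carried 70.5% of the gene's mean and NM_001160406 carried 29.5%.

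The receptor gene Epor (chromosome 9, 21958897 to 21963576) stood at 1.80 and 0.737 FPKM in WT-1 and WT-2, and at 0.991 and 0.920 in KI-1 and KI-2. The KI values again lay between the WT values. The log2 difference was -0.17 with SE 0.33, with -0.49 in number 1 and 0.14 in number 2, and it was 0.17 without WT-1.

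Tfrc (chromosome 16, 32608896 to 32632794), the transferrin receptor gene, stood at 17.5 and 12.9 FPKM in WT-1 and WT-2, and at 19.03 and 17.1 in KI-1 and KI-2. KI exceeded WT within each number, by ratios of 1.09 and 1.32, but KI-2 was below WT-1. The means were 15.2 ± 3.23 FPKM for WT and 18.1 ± 1.38 for KI (SD, n = 2), a log2 difference of 0.24 with SE 0.24.

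Alas2 (chromosome X, 150547417 to 150570622), which encodes the erythroid form of the first enzyme of heme synthesis, stood at 0.0664 and 0.400 FPKM in WT-1 and WT-2, and at 0.537 and 0.236 in KI-1 and KI-2. The groups overlapped, and the gene was not tested. Its housekeeping counterpart Alas1, which makes the same first step in other cells, stood at 13.6, 19.2, 19.6 and 22.5 FPKM in WT-1 and WT-2, then KI-1 and KI-2. For Alas1, both KI libraries were above both WT libraries, beside 6.39% of all tested genes. Its log2 difference was 0.36 (unadjusted p = 0.198, adjusted p = 1, limma).

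The alpha-globin gene Hba-a1 (chromosome 11, 32283672 to 32284486) had the largest difference of the set. It stood at 7.505 and 6.96 FPKM in WT-1 and WT-2, and at 24.0 and 10.4 in KI-1 and KI-2. The 2 WT libraries were close to each other, KI-1 was far above the rest and KI-2 a little above WT. The means were 7.23 ± 0.386 FPKM for WT and 17.2 ± 9.60 for KI (SD, n = 2). The log2 difference was 1.04 with SE 0.39 (unadjusted p = 0.0370, adjusted p = 1, limma), and 12 of the tested genes had a larger one in the same direction. Within the numbers it was 1.55 in number 1, a ratio of 3.19, and 0.52 in number 2, a ratio of 1.49. It stayed above 0 without each library in turn, at 0.47 without KI-1 and 1.60 without KI-2. KI and WT did not overlap for Hba-a1, with KI higher, the only one of the 8 tested genes for which they did not overlap, beside 6.39% of all tested genes with KI above WT and 7.06% with KI below. In the authors' deposited table, Hba-a1 had a signed fold of 1.69 with p = 0.0644 and an adjusted p of 0.260.

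The 2 adult alpha-globin genes of the mouse lie side by side on chromosome 11 and are almost the same sequence, which bears on what the Hba-a1 value holds. Their coding sequences of 429 bases in the GENCODE M21 transcripts (GRCm38) differ at 1 base, C381T, counted from 1 at the A of the start codon with the Hba-a1 base first. The stretch around that base, bases 351 to 411, is shown with the differing base in capitals.
Hba-a1: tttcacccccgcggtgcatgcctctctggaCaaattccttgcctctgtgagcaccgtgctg
Hba-a2: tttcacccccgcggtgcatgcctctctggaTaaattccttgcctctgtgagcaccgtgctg
The longest stretch that the 2 transcripts share without a difference is 415 bases. Reads that fall within a shared stretch match both genes, and the value listed for Hba-a1 may hold reads of Hba-a2. How such reads were counted is not given in the sources used here.

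Of 11 further genes, other globins and the alpha-globin chaperone gene Ahsp, 2 had values. Hbb-b2, an adult beta-globin gene, stood at 7.89 and 24.6 FPKM in WT-1 and WT-2, and at 6.76 and 16.7 in KI-1 and KI-2. Both libraries numbered 2 were above those numbered 1, and KI was below WT within each number although the groups overlapped, by a log2 difference of -0.20 in number 1 and -0.53 in number 2. The ratio of Hba-a1 to Hbb-b2 was 0.952 and 0.283 in WT-1 and WT-2, and 3.55 and 0.622 in KI-1 and KI-2. Hbb-bs was listed between 0.0002 and 0.00467 FPKM. In RefSeq, Hbb-bs lies at 103826523 to 103827928 on chromosome 7, while Hbb-b2 is listed at 53494 to 54867. Hbb-bt, listed at 103812524 to 103813923, had no value. The adult beta-globin genes are near-identical copies as well, so the split of reads between them is uncertain. The value listed for Hbb-b2 may hold reads of Hbb-bs or Hbb-bt, and the ratio of Hba-a1 to Hbb-b2 carries that limit.

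The 2 carbonic anhydrase genes, whose enzymes interconvert carbon dioxide and bicarbonate, were both lower in KI within each number. Car1 (chromosome 3, 14766214 to 14808365) stood at 15.7 and 4.19 FPKM in WT-1 and WT-2, and at 10.1 and 2.29 in KI-1 and KI-2. Within number 1 the KI value was 0.639 of WT, and within number 2 it was 0.545 of WT. The means were 9.97 ± 8.16 FPKM for WT and 6.17 ± 5.50 for KI (SD, n = 2), a log2 difference of -0.63 with SE 0.73. The groups overlapped because the libraries numbered 2 were 0.266 of number 1 in WT and 0.227 in KI. The sign turned without WT-1, to 0.21, and without KI-2, to 0.25, where the numbers are unbalanced between the genotypes. The transcript NM_009799 carried 99.999% of the Car1 value, and NM_001083957 stayed at or below 0.000182 FPKM.

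Car2 (chromosome 3, 14886269 to 14900770), which is also used outside the erythroid lineage, stood at 156 and 251 FPKM in WT-1 and WT-2, and at 121 and 195 in KI-1 and KI-2. KI was 0.773 of WT in number 1 and 0.777 in number 2. The log2 difference was -0.37 with SE 0.36, and -0.37 and -0.36 within the numbers. In the authors' deposited table, Car1 (NM_009799) had a signed fold of -1.39 with p = 0.0189 and Car2 one of -1.20 with p = 0.0222, and their adjusted p-values were 0.158 and 0.167. None of the 12 transcripts of the set passed an adjusted p of 0.05 in the authors' deposited table.

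Car1 and Car2 moved in opposite directions between the library numbers. The ratio of Car2 to Car1 was 9.93 and 12.01 in the WT and KI libraries numbered 1, and 59.8 and 85.3 in those numbered 2. Car3 and Car13, which lie in the same cluster on chromosome 3 within 14641727 to 14900770, stood at 1.90 to 2.97 and 2.78 to 4.45 FPKM over the 4 libraries. Among the 10 other carbonic anhydrase genes with values, 5 were tested and 0 were called in either direction, with a median log2 difference of 0.086 between KI and WT. Car12 stood at 1.32, 1.80, 2.36 and 2.63 FPKM and Car9, a membrane form induced by low oxygen, at 4.65, 4.92, 2.87 and 4.53 in WT-1 and WT-2, then KI-1 and KI-2, and Car5a stayed at or below 0.0723. Both KI libraries were above both WT libraries for Car12, beside 6.39% of all tested genes. For Car9 both KI libraries were below both WT libraries, beside 7.06% of all tested genes.

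The libraries numbered 2 differed from those numbered 1 far more than KI from WT. In a limma fit on the number alone, 3 of the 8 tested genes were called. Gfi1b was higher in number 2, by 0.91 with SE 0.12 on the log2 scale (adjusted p = 0.0044), and so was Car2, by 0.68 with SE 0.16 (adjusted p = 0.0187). Car1 was lower in number 2, by a log2 difference of -1.72 with SE 0.27 (adjusted p = 0.00651, limma), and only 20 tested genes had a larger difference in that direction. Over all tested genes, 35.6% were called higher and 4.60% lower, and the median of all tested genes was 0.27 higher in number 2. After median scaling, which brought that median to 0.028, the calls of Gfi1b and Car1 held, that of Car2 was lost (adjusted p = 0.128, limma) and Tfrc was called lower in number 2 (-0.54, adjusted p = 0.0446). The Car2 call was also lost without WT-2 (adjusted p = 0.0936, limma), Gata1 was called lower in number 2 without KI-1 (-0.46, adjusted p = 0.0276), and Hba-a1 was called lower without WT-1 (-1.39, adjusted p = 0.000719). Each of these fits without a library sets 1 library alone against 2. The lone library of number 1 was WT-1, the highest for Gata1, in the first of the last 2 calls and KI-1, the highest for Hba-a1, in the second. It is assumed to vary like the other pair, and number and genotype are not balanced there. The labels do not say what the numbers stand for.

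**Figure D3:**
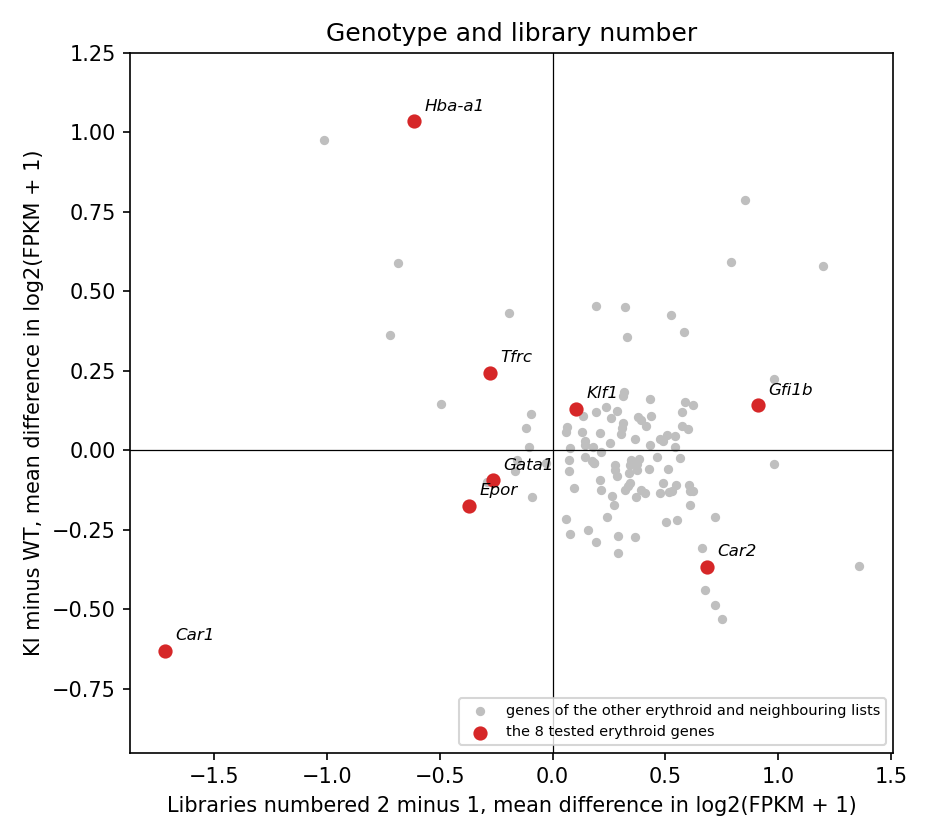
Mean difference in log2(FPKM + 1) between libraries numbered 2 and 1 (x axis) and between KI and WT (y axis) for the 8 tested erythroid genes (red) and the tested genes of the other erythroid and neighbouring lists (grey). Car1 lies far to the left at -1.72 and Gfi1b to the right at 0.91, while Hba-a1 is the highest point at 1.04.

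The promoters were compared for the letters that GATA factors bind, since 8 of the 10 genes had a window in the RefSeq promoter table (GRCm38.p6). Each window ran from 250 bases before to 50 after a start site of that table. The table held 2 start sites for Tfrc and 1 for each of the others, and that of Gata1 lies inside the gene's span given above, so that the outer end of Gata1 was not searched. AGATAA or TGATAA, on either strand, was present in the windows of 6 of the 8 genes, all but those of Gata1 and Tfrc, against 18.6% of all 32851 windows of this length. AGATAA was in 11.2% of all windows and TGATAA in 9.05%. The matches are shown in the direction of the gene with the GATA letters in capitals, TTATCT and TTATCA being AGATAA and TGATAA on the opposite strand.
Klf1, chr8:84901890-84901919, plus strand: tttgcctgggtcTTATCAgggaagacagcc
Gfi1b, chr2:28622085-28622114, minus strand: tctgtgaagtttTGATAAgcaaatgtggct
Epor, chr9:21963613-21963642, minus strand: ggtggctgtagcTTATCTgtccccagcctg
Hba-a1, chr11:32283477-32283506, plus strand: tgtccgggcaacTGATAAggattccctgca
Hba-a2, chr11:32296294-32296323, plus strand: tgtccgggcaacTGATAAggattccctgca
Alas2, chrX:150547319-150547348, plus strand: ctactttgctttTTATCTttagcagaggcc
The 2 alpha-globin stretches are the same 30 letters. The genes that hold these letters include the lowest of the set, Alas2, Epor and Klf1, as well as Hba-a1 and Gfi1b. CCNCNCCC, the letters KLF factors bind, was in 5 of the 8 genes and in 49.5% of all windows, and overlapping matches were counted once per window. A match of letters does not show that a factor binds there.

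Genes that work with the erythroid factors ranged from 2.29 to 621 FPKM over the 4 libraries. All 22 of these factor partners were tested, and 0 were called in either direction between KI and WT by limma, with a median log2 difference of -0.041. Tal1 and Lmo2, which form a complex with GATA factors on DNA, stood at 20.4, 30.2, 18.8 and 27.3 FPKM and at 412, 621, 363 and 520 in WT-1 and WT-2, then KI-1 and KI-2. Gata2, which precedes Gata1 in stem and progenitor cells, stood at 74.4, 71.5, 50.96 and 69.5 FPKM, and its ratio to Gata1 was between 6.71 and 10.8. KI-1 was the low library for Gata2, and KI-2 was only a little below WT. Sox6, a repressor of embryonic globin, stood at 2.93, 3.16, 2.29 and 2.46 FPKM. For Gata2 and Sox6, both KI libraries were below both WT libraries, beside 7.06% of all tested genes.

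Genes of signalling from the erythropoietin receptor were present although Epor was near 1 FPKM. Of 17, 16 were tested and 0 called, with a median of -0.035. The kinase gene Jak2 stood at 28.8, 29.8, 29.6 and 27.5 FPKM and the factor gene Stat5a at 29.6, 38.2, 25.9 and 36.1 in WT-1 and WT-2, then KI-1 and KI-2. Pik3r1, a regulatory subunit of PI3 kinase, stood at 35.0, 38.4, 28.7 and 32.7, and the feedback inhibitor gene Socs2 at 1.29, 0.30, 1.75 and 0.791. For Pik3r1, both KI libraries were below both WT libraries, beside 7.06% of all tested genes. These signalling genes serve other cytokine receptors of progenitors too.

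Of 20 heme synthesis and transport genes beside Alas2, 18 had values, all 18 were tested and 0 called, with a median log2 difference of 0.014. Alad, the second enzyme of the path, stood at 9.69, 8.16, 9.02 and 8.38 FPKM in WT-1 and WT-2, then KI-1 and KI-2. Hmox1, which breaks heme down, stood at 0.291, 1.202, 0.920 and 2.36, and Blvrb, a biliverdin reductase gene, at 14.97, 23.4, 9.02 and 17.6. Hmox1 was higher in KI within each number, by log2 differences of 0.57 and 0.61, beside 28.7% of all tested genes. It passed the filter of 1 FPKM only through KI, with means of 0.747 FPKM in WT and 1.64 in KI. Blvrb was lower in KI within each number, by log2 differences of -0.67 and -0.39, beside 25.5% of all tested genes. For both genes KI and WT overlapped.

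Of 19 genes of iron uptake, storage and sensing, 17 had values, 16 were tested and 0 called, with a median of 0.020. Beside Tfrc, the second transferrin receptor gene Tfr2 stood at 17.6, 17.7, 13.8 and 18.8 FPKM. Slc11a2, which carries iron out of endosomes, stood at 2.78, 4.03, 4.51 and 5.46 FPKM in WT-1 and WT-2, then KI-1 and KI-2. Its KI libraries were both above both WT libraries, beside 6.39% of all tested genes (log2 difference 0.45, unadjusted p = 0.143, adjusted p = 1, limma). Steap3, which reduces iron in the same compartment, stood at 3.52, 5.22, 4.81 and 7.73, and the iron chaperone gene Pcbp1 at 94.9, 135, 99.6 and 159.

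Some markers of mature red cells were low. Of 21 red cell membrane and blood group genes, 20 had values, and 10 of these had a mean under 1 FPKM. Slc4a1, the anion exchanger gene of the red cell membrane, stood at 0.335 and 0.151 FPKM in WT-1 and WT-2, and at 0.857 and 0.0849 in KI-1 and KI-2. Both libraries numbered 1 were above those numbered 2. Members used by other cells too were higher, with Gypc at 19.02, 31.0, 18.1 and 27.0, Epb41 at 44.7, 58.1, 42.4 and 51.3 and Cd59a at 2.52, 8.09, 4.93 and 11.1. Icam4, Xk, Aqp1 and Slc14a1 of this list also passed the filter, with means of 3.19, 3.50, 5.52 and 7.54 FPKM. The 10 tested genes had a median log2 difference of 0.021 between KI and WT, and 0 were called. Between the numbers, 5 of the 10 were called higher in number 2 and 0 lower (limma).

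The low red cell genes were mostly higher in number 1, as Car1 was. Of the 10 with a mean under 1 FPKM, 6 were higher in number 1 in both genotypes and 1 was higher in number 2, against 586 and 1091 of the 2666 low symbols of the whole table. Their summed level was 3.96 and 2.115 FPKM in WT-1 and WT-2, and 5.315 and 1.96 in KI-1 and KI-2. KI-1, the library with the highest Hba-a1, was the highest library for 6 of the 20 red cell genes with values (30%), against 14.2% of all symbols. Summed over those 20 genes, the level was 155 and 211 FPKM in WT-1 and WT-2, and 155 and 206 in KI-1 and KI-2. The part of mature red cells in the Hba-a1 values was not tested.

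**Figure D4:**
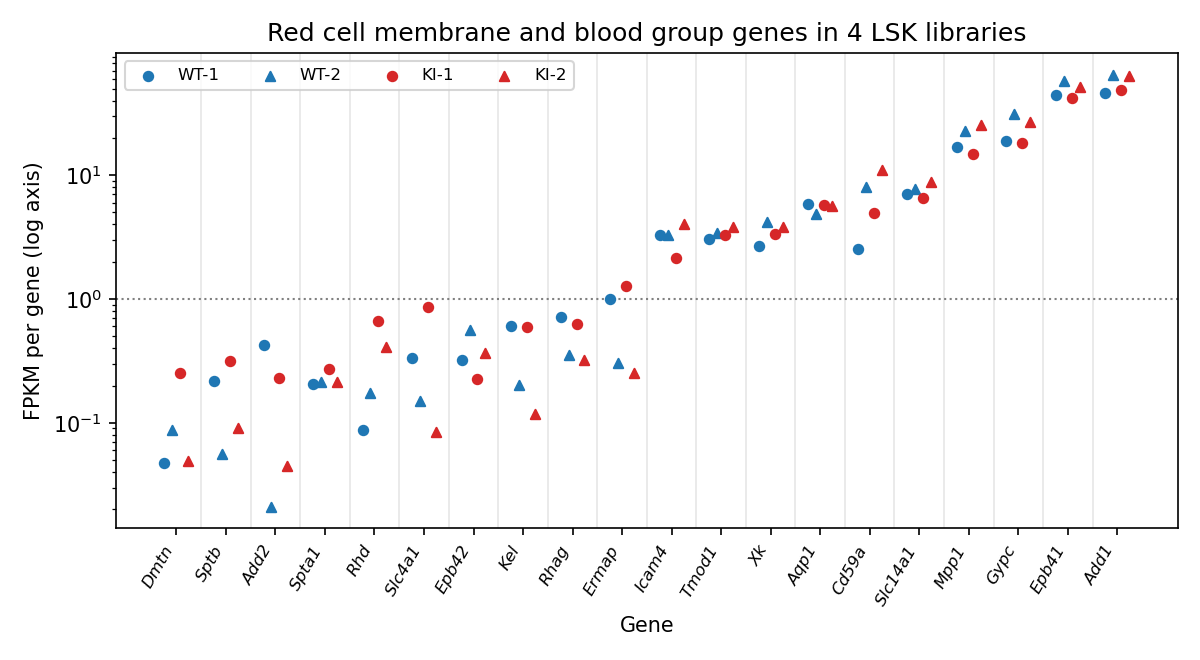
FPKM per gene (log axis) of the 20 red cell membrane and blood group genes with values, ordered by mean, by library. Blue points are WT and red points KI, circles mark number 1 and triangles number 2, and the dotted line is 1 FPKM. Among the 10 genes with a mean below the line, circles lie above triangles in both genotypes for 6, while 5 of the 10 genes above it were called higher in number 2.

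Of 14 late erythroid genes, 13 had values, 9 were tested and 0 called, with a median of -0.063. Bpgm, which makes the red cell's oxygen-releasing phosphate, stood at 9.97, 16.2, 9.51 and 14.5 FPKM in WT-1 and WT-2, then KI-1 and KI-2, and Bnip3l, which clears mitochondria from maturing cells, at 31.3, 48.8, 30.9 and 41.1. Trim58 stood at 2.75, 4.08, 3.63 and 4.31 and Xpo7 at 8.73, 8.69, 7.36 and 8.57. For Xpo7, both KI libraries were below both WT libraries, beside 7.06% of all tested genes.

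Lineages that share Gata1 and Gfi1b with the red cell were measured beside these genes. Of 18 megakaryocyte genes, 15 had values, 14 were tested and 0 called, with a median log2 difference of -0.12, and their summed level was 163, 209, 135 and 220 FPKM in WT-1 and WT-2, then KI-1 and KI-2. The platelet chemokine gene Pf4 stood at 11.1, 6.70, 6.42 and 9.28, Itga2b at 17.1, 18.2, 15.5 and 19.96, Vwf at 4.28, 7.86, 2.83 and 5.22 and Thbs1 at 14.8, 22.1, 21.04 and 48.3. The highest Pf4 value was in WT-1, where Gata1 was highest too.

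Of 15 mast cell, basophil and eosinophil genes, 10 had values, 4 were tested and 0 called, with a median log2 difference of 0.51. All 4 tested genes, Cpa3, Mcpt8, Hdc and Prg2, were higher in KI within both numbers, beside 28.7% of all tested genes, while of the 6 that were not tested 0 were higher and 2 lower in both. Their summed level was 17.2 and 12.5 FPKM in WT-1 and WT-2, and 30.7 and 15.1 in KI-1 and KI-2, and KI-1, the library that was also highest for Hba-a1, was the highest for 6 of the 10, against 14.2% of all symbols. Prg2, an eosinophil granule gene, stood at 3.39, 1.95, 10.7 and 3.28 FPKM, Cpa3 at 8.33, 5.56, 9.22 and 6.33, Hdc at 0.973, 1.18, 2.37 and 1.33 and Gzmb at 0.0469, 0.941, 0.878 and 0.925. The part of such cells in the difference in Hba-a1 was not tested.

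The LSK label was checked against its markers. All 8 gate and stem cell markers were above the filter, Kit at 81.9 to 105 FPKM and Ly6a, which encodes Sca-1, at 20.7 to 41.9. Lineage markers that the sort should remove summed to 31.4 and 47.6 FPKM in WT-1 and WT-2, and to 38.2 and 74.6 in KI-1 and KI-2 over the 7 of 11 with values, and 0 were called between KI and WT by limma, with a median log2 difference of 0.30. KI was above WT with no overlap for 4 of the 7, Itgam, Cd4, Fcgr3 and Itgax, as for Hba-a1, beside 6.39% of all tested genes. Cd4 and Fcgr3 passed the filter of 1 FPKM only through KI. Their means were 0.992 and 0.779 FPKM in WT, against 1.46 and 1.48 in KI. The count of 4 and the median of 0.30 therefore lean toward KI being higher. The myeloid gene Itgam stood at 15.9 and 16.3 FPKM in WT-1 and WT-2, and at 20.7 and 20.1 in KI-1 and KI-2, and the B cell gene Cd79a ranged from 9.23 to 40.6 with KI-2 the highest. The 4 genes were named after their values were seen, and the part of such cells in the Hba-a1 difference was not tested. The sum of all FPKM was 337313 and 402754 in WT-1 and WT-2, and 324255 and 411542 in KI-1 and KI-2, higher in number 2 in each genotype. Summed levels of the lists are given without scaling for this. Fragment counts were not given, so the depth behind each value is unknown, and its part in the low values of Klf1, Epor and Alas2 was not tested.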

How the data were processed

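RNA of LSK cells was sequenced in 2 WT and 2 KI libraries. TopHat and Cufflinks (version not given) and the build mm10, or GRCm38, are named in the submitters' processing notes. The authors deposited FPKM for 18691 RefSeq transcripts per library, with no value of 0 (lowest 1e-06). They also deposited normalized log2 values per library, with group means and SDs, and a comparison with a signed fold, a test statistic (a score) and p-values, with methods not stated.

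FPKM were summed per symbol, and 11083 genes with a mean of at least 1 were tested as log2(FPKM + 1) using limma 3.58.1 (R 4.3.3), a variance trend and a model of genotype alone, leaving out 2666 symbols. The pseudocount understates changes of low genes. A second fit had the library number as its term. The fits were tested on simulated data. In the gene lists, 3 symbols were matched by gene ID. Members and lists were chosen with earlier results of these data known. From each list the text names the first 2 genes with values and the 2 others with the smallest unadjusted p. Car13 and Mcpt8 were added after their values were seen. 1 gene of the red cell list is not reported here. Alternatives were the pseudocount, filter, scaling, the highest transcript, the authors' log2 values, a term for the other factor and leaving out each library. Positions are from RefSeq (GRCm38.p6).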

Additional observations from a re-analysis of the deposited data

How the results depend on the processing

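Between KI and WT, 0 erythroid genes were called under any of the 13 alternatives run. Over all genes, limma called 0 in the fit on genotype, 1 with the library number as a replicate block, 1 with that block and quantile scaling, and 7 to 37 without 1 library. The lowest adjusted p of an erythroid gene, 0.0586 for Car1, came from the authors' normalized log2 values. With the replicate block, the adjusted p was 0.678 for Hba-a1, Car1 and Car2, and SEs were 0.24, 0.12 and 0.073. The deviations of WT-1 and KI-1 from their group means had a correlation of 0.69 across tested genes, which are not independent. With 2 pairs and no label for the numbers, the source of what libraries of equal number share is not known.

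Leaving out 1 library unbalances the numbers between the genotypes. Over these 4 fits the log2 difference between KI and WT ran from -0.37 to 0.19 for Gata1, -0.10 to 0.36 for Klf1, -0.36 to 0.65 for Gfi1b, -0.52 to 0.17 for Epor, -1.50 to 0.25 for Car1, 0.47 to 1.60 for Hba-a1, -0.71 to -0.022 for Car2 and 0.040 to 0.45 for Tfrc. Its sign also turned for Tal1 (-0.40 to 0.14), Lmo2 (-0.51 to 0.076), Jak2 (-0.090 to 0.012), Stat5a (-0.37 to 0.10), Socs2 (-0.045 to 0.77), Hbb-b2 (-1.12 to 0.40), Alad (-0.14 to 0.081), Tfr2 (-0.34 to 0.086), Pcbp1 (-0.18 to 0.49), Gypc (-0.47 to 0.21), Cd59a (-0.10 to 1.27), Epb41 (-0.31 to 0.060), Bpgm (-0.43 to 0.22), Bnip3l (-0.44 to 0.18), Trim58 (-0.035 to 0.40), Pf4 (-0.47 to 0.18), Itga2b (-0.18 to 0.17) and Cpa3 (-0.11 to 0.40). With the authors' log2 values it turned for Tfr2 (0.14) and Itga2b (0.0047), and with the highest transcript for Tfr2 (0.20). The cause was not tested.

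Between the numbers, the count over all genes was 4452, against 2176 with median scaling, 2187 with quantile scaling and 1162 to 4808 without 1 library. The log2 difference of Klf1 was 0.10, but -0.047 with median and -0.14 with quantile scaling, and -0.15 to 0.35 without 1 library. That of Hba-a1 was -1.39 to 0.16 without 1 library.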
